A study of Mus musculus with 4 samples.

Results

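The 10 genes described here encode parts of the desmosome or proteins that act at it, and were taken by symbol from a deposited table of 32230 gene symbols: Dsp, Jup, Pkp1, Pkp2, Pkp4, Dsg2, Dsc2, Dsc3, Perp and Ppl. All 10 symbols were found. RNA came from mouse embryonic fibroblasts of the 4F2A strain on day 2 of reprogramming, taken from male E13.5 embryos homozygous for 4F2A, which lets doxycycline switch on the reprogramming factors Oct4, Sox2, Klf4 and Myc. Every library came from cells kept in 2 µg/mL doxycycline for 48 h in LIF medium with serum replacement. The control group received the vehicle DMSO and the treated group CX-5461, an inhibitor of RNA polymerase I, in each case for 1 h on day 0. The dose of CX-5461 is not given in the sources used here. Each group had 2 libraries, numbered 2 and 3. How many embryos the fibroblasts came from is not given either, and the genotype field of the labels reads control or treated in place of an allele.

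A desmosome is a spot-like junction that fastens the keratin or desmin filaments of neighbouring cells to each other. Desmogleins and desmocollins, the desmosomal cadherins, reach across the gap between cells, and plakoglobin (Jup) and the plakophilins hold their tails inside the cell. Desmoplakin (Dsp) ties this plaque to the filaments. Desmosomes are typical of epithelia and of heart muscle, whereas fibroblasts adhere mainly through classical cadherins. Reprogramming of fibroblasts involves an early shift from mesenchymal to epithelial features.

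Levels are TPM, transcripts per 1000000, a unit that divides reads by gene length and library total and so lets genes be set side by side. A log2 difference is the mean log2(TPM + 1) with CX-5461 less that with DMSO, a scale on which changes of low genes look too small. A gene entered the limma test if its 4 libraries averaged 1 TPM or more, and passed at a Benjamini-Hochberg adjusted p under 0.05 over all 14621 genes tested. The labels do not say that the libraries came from separate cultures, and the p-values cover no more than how far these samples differ from each other, which may be technical. Recovered read numbers came to 35300000 to 37600000 per library. DMSO replicate 3 stood apart with 15.3% of its TPM in mitochondrially encoded genes, against 9.20% to 9.97% in the other libraries. All 8 fibroblast markers listed were found in every library, at 17.3 to 4321 TPM.

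Most desmosome genes were higher after CX-5461, but not all. Dsp, Perp, Pkp1, Pkp2, Ppl, Dsc3 and Jup passed as higher, Pkp4 passed as lower, Dsc2 did not pass, and Dsg2 lay below the filter. Among all genes tested, 11.6% passed as higher, 8.21% as lower and 19.8% in either direction. The excess of higher over lower calls among all genes, 1694 against 1201, was not seen under other scalings, with 1652 against 1655 under median-of-ratios scaling, 1638 against 1646 under quantile normalization and 1621 against 1687 after rescaling without the highest genes. Under each of these, 6 desmosome genes passed as higher and 1 as lower. The groups did not overlap for 9 of the 10 genes, 8 of them higher with CX-5461, and among all genes tested they did not overlap for 38.2% higher, 26.3% lower and 64.5% in either direction. Of the 8 genes that averaged 1 TPM or more in each group, 6 passed as higher and 1 as lower. Dsc3 reached the filter only through its CX-5461 libraries and so had to differ. The median difference of the 9 tested genes was 0.99, against 0.07 over all genes tested. The members were chosen with results of this comparison known, so these counts are a description. In bulk RNA, a change in how many cells express a gene and a change in RNA per cell cannot be told apart.

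**Figure D1:**
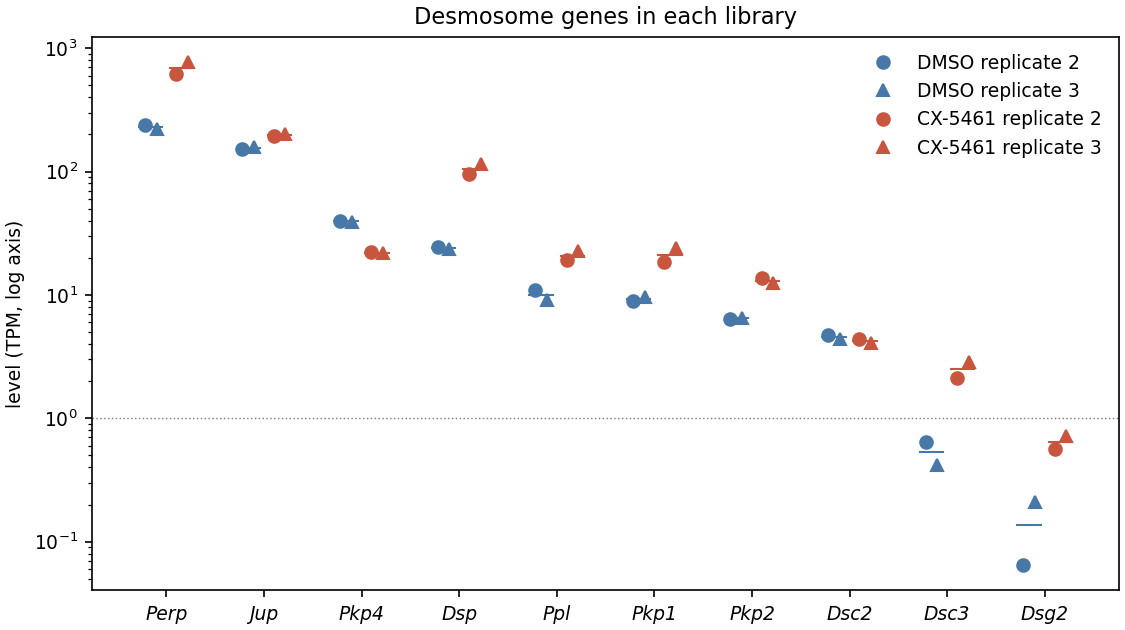
Level of each desmosome gene (TPM, log axis) in the 4 libraries, ordered by the DMSO mean. Circles are replicate 2 and triangles replicate 3, short lines are group means of 2 libraries, and the dotted line marks 1 TPM. The 2 groups lie apart for every gene but Dsc2, and Pkp4 is the gene whose DMSO libraries lie above.

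Levels spanned more than 3 orders of magnitude on the TPM scale. In DMSO, Perp was highest at a mean of 231 TPM, followed by Jup at 155, Pkp4 at 39.4 and Dsp at 24.1 TPM. Ppl (10.04 TPM) and Pkp1 (9.31 TPM) were neighbours whose DMSO libraries overlapped, at 9.12 to 11.0 and 8.93 to 9.69 TPM. Pkp2 followed at 6.49, Dsc2 at 4.55, Dsc3 at 0.532 and Dsg2 at 0.137 TPM. After CX-5461 the order changed: Dsp, at 105 TPM, stood next behind Perp (696 TPM) and Jup (196 TPM). Pkp4, Pkp1 and Ppl then stood together, at 21.8 to 22.3, 18.4 to 23.9 and 19.2 to 22.5 TPM in their libraries.

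Dsp encodes desmoplakin, the plakin that links the desmosomal plaque to intermediate filaments (ENSMUSG00000054889.10, chromosome 13, 38151294 to 38198577, plus strand, mm10). It stood at 24.6 and 23.7 TPM with DMSO and at 95.6 and 115 TPM with CX-5461. Both treated libraries lay far above both controls, while the controls nearly coincided. The mean rose 4.37-fold, and the log2 difference was 2.08 with an SE of 0.12 (95% interval 1.79 to 2.36, limma adjusted p = 0.000537). Dsp ranked 40th from the top of 14621 tested genes by difference. These values rest on 2444.5, 2642.5, 9476.5 and 11226.5 recovered reads. Exons of Gm10129, a predicted gene on the opposite strand, cover 5.17% of the exon length of Dsp, and whether the counting used strand is not given in the sources used here.

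Ppl encodes periplakin, a plakin of the cornified envelope and of desmosomes (ENSMUSG00000039457.4, chromosome 16, 5086291 to 5132421, minus strand). It stood at 11.0 and 9.12 TPM with DMSO and at 19.2 and 22.5 TPM with CX-5461. The groups did not overlap, and the mean rose 2.08-fold (log2 difference 0.99 ± 0.14 SE, limma adjusted p = 0.00847). Its partner envoplakin (Evpl), also of the cornified envelope, stood at 8.08 and 7.33 against 10.2 and 14.2 TPM and did not pass (log2 difference 0.59, limma adjusted p = 0.0743). It did pass with voom on recovered reads (adjusted p = 0.0107). Within the sum of Dsp, Ppl and Evpl, the share of Dsp was 56.4% and 59.0% with DMSO and 76.5% and 75.9% with CX-5461. The call of Ppl ended without CX-5461 replicate 2 (adjusted p = 0.0518) and without CX-5461 replicate 3 (adjusted p = 0.0921).

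Jup encodes plakoglobin, a relative of beta-catenin that binds the tails of desmosomal and classical cadherins (ENSMUSG00000001552.14, chromosome 11, 100368958 to 100397763, minus strand). Its levels were 153 and 158 TPM with DMSO and 193 and 199.8 TPM with CX-5461. The groups lay apart, by a smaller ratio than for the other members that passed. The mean rose 1.26-fold, with a log2 difference of 0.34 (95% interval 0.14 to 0.53, limma adjusted p = 0.0357). The call of Jup ended without CX-5461 replicate 2 (adjusted p = 0.207) and without CX-5461 replicate 3 (0.283). It also ended under median-of-ratios scaling (0.27, adjusted p = 0.0643), quantile normalization (0.23, 0.131), rescaling without the highest genes (0.26, 0.0729), no filter (0.0613) and the fit without the trend and robust options (0.0918). Ctnnb1, which encodes beta-catenin, stood at 542 and 440.1 against 541 and 548 TPM and did not pass (log2 difference 0.16, limma adjusted p = 0.387). Its difference was 0.01 without DMSO replicate 3, and without DMSO replicate 2 it passed (0.31, adjusted p = 0.0335). The ratio of Jup to Ctnnb1 was 0.282 and 0.359 with DMSO and 0.357 and 0.365 with CX-5461, so on this ratio DMSO replicate 3 lay with the treated libraries.

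Dsp, Jup and Pkp4 had a promoter window in the RefSeq table (GRCm38.p6). On the log2(TPM + 1) scale, Dsp had the largest difference of the tested members, Jup the smallest of those that rose, and Pkp4 fell. The 250 bases before each start site lie at chr13:38151044-38151293 for Dsp, chr11:100397791-100398040 for Jup and chr2:59160600-59160849 for Pkp4. They are shown so that the 3 can be compared, with capitals for matches to the motifs searched below.
Dsp promoter, plus strand: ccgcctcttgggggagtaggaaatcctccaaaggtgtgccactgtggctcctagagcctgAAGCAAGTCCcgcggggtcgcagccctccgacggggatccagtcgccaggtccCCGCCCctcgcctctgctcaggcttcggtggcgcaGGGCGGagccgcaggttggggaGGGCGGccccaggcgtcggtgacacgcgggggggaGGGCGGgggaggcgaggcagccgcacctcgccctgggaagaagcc
Jup promoter, minus strand: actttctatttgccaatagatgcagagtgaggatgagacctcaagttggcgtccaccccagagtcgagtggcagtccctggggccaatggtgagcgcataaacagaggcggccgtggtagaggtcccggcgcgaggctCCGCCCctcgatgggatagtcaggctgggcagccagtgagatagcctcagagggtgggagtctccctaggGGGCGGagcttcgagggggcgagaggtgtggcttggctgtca
Pkp4 promoter, plus strand: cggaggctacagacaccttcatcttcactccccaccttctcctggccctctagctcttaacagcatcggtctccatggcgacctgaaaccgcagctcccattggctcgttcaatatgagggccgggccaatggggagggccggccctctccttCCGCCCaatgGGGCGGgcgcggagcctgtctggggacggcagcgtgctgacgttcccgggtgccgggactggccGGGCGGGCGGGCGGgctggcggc
The capitals are GC boxes (GGGCGG, on either strand) and, in Dsp, the 10 bases AAGCAAGTCC, which match the p53 half-site.

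Windows of 300 bases, with 50 bases after the start, were searched on both strands for 5 motifs. GC boxes, bound by Sp and Kruppel-like factors, numbered 4 in Dsp, 2 in Jup and 6 in the first of the 2 windows of Pkp4, where 3 of them overlap. Of all 32851 windows in the table, 35.7% held at least 1. The p53 half-site had 1 match, in Dsp, against 8.36% of all windows. CAGGTG, the E-box of Snail and Zeb factors, was found in Dsp from 3 bases after the start base and in the second window of Pkp4 (chr2:59161619-59161868), and 20.2% of all windows held it. AACNGGTT, the Grainyhead motif (2.09% of windows), and TGANTCA, the AP-1 motif (7.81%), had no match in these windows. So Pkp4, which fell, and Dsp and Jup, which rose, shared the GC box, and Dsp and the second window of Pkp4 shared the E-box. The other genes that passed had no window. G and C made up 73% of the window of Dsp, 60.7% of that of Jup and 69.3% and 68% of those of Pkp4. The median over all windows was 52.7%, and GC boxes are made of these 2 letters. A match is a string of letters and not a measured binding site.

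The plakophilins moved in opposite directions. Pkp1 encodes plakophilin 1, a plaque protein best known from stratified epithelia (ENSMUSG00000026413.12, chromosome 1, 135871395 to 135919207, minus strand). It stood at 8.93 and 9.69 TPM with DMSO and at 18.4 and 23.9 TPM with CX-5461. Both treated libraries lay above both controls, and the mean rose 2.27-fold (log2 difference 1.09 ± 0.15 SE, limma adjusted p = 0.00790). Without CX-5461 replicate 3, Pkp1 did not pass (0.91, adjusted p = 0.0683).

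Pkp2 encodes plakophilin 2, the plakophilin of simple epithelia and heart muscle (ENSMUSG00000041957.15, chromosome 16, 16213318 to 16272712, plus strand). It stood at 6.42 and 6.55 TPM with DMSO and at 13.7 and 12.4 TPM with CX-5461. The mean rose 2.01-fold (log2 difference 0.91 ± 0.13 SE, limma adjusted p = 0.00800). Its call ended without CX-5461 replicate 2 (adjusted p = 0.0796) and without CX-5461 replicate 3 (adjusted p = 0.0658).

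Pkp4, also called p0071, is an armadillo protein of the p120 catenin group found at adherens junctions as well as desmosomes (ENSMUSG00000026991.20, chromosome 2, 59160850 to 59355208, plus strand). It stood at 39.9 and 39.0 TPM with DMSO and fell to 22.3 and 21.8 TPM with CX-5461. The 2 libraries of each group nearly coincided, and the DMSO mean was 1.79-fold the CX-5461 mean. The log2 difference was -0.81 (95% interval -1.03 to -0.59, limma adjusted p = 0.00381), and it ranged over -0.83 to -0.79 with 1 library left out. Pkp4 did not pass without CX-5461 replicate 3 (adjusted p = 0.0590).

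Pkp3, the remaining plakophilin, stood at 0.780, 1.12, 0.701 and 1.21 TPM and was below the filter. Summed over the 4 plakophilins, levels were 56.0 and 56.4 TPM with DMSO and 55.1 and 59.3 TPM with CX-5461, so that the groups overlapped. Without Pkp4 the sum was 16.1 and 17.4 TPM with DMSO and 32.8 and 37.5 TPM with CX-5461, and the groups lay apart. The makeup of the sum over all 4 shifted. Pkp4 held 71.2% and 69.2% of it with DMSO and 40.5% and 36.7% with CX-5461. The share of Pkp1 was 15.9% and 17.2% against 33.3% and 40.4%, and that of Pkp2 11.5% and 11.6% against 24.9% and 20.9%. Pkp4 was 6.20 and 5.95 times the level of Pkp2 in the controls and 1.63 and 1.76 times in the treated libraries. These shares were described and not tested.

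**Figure D2:**
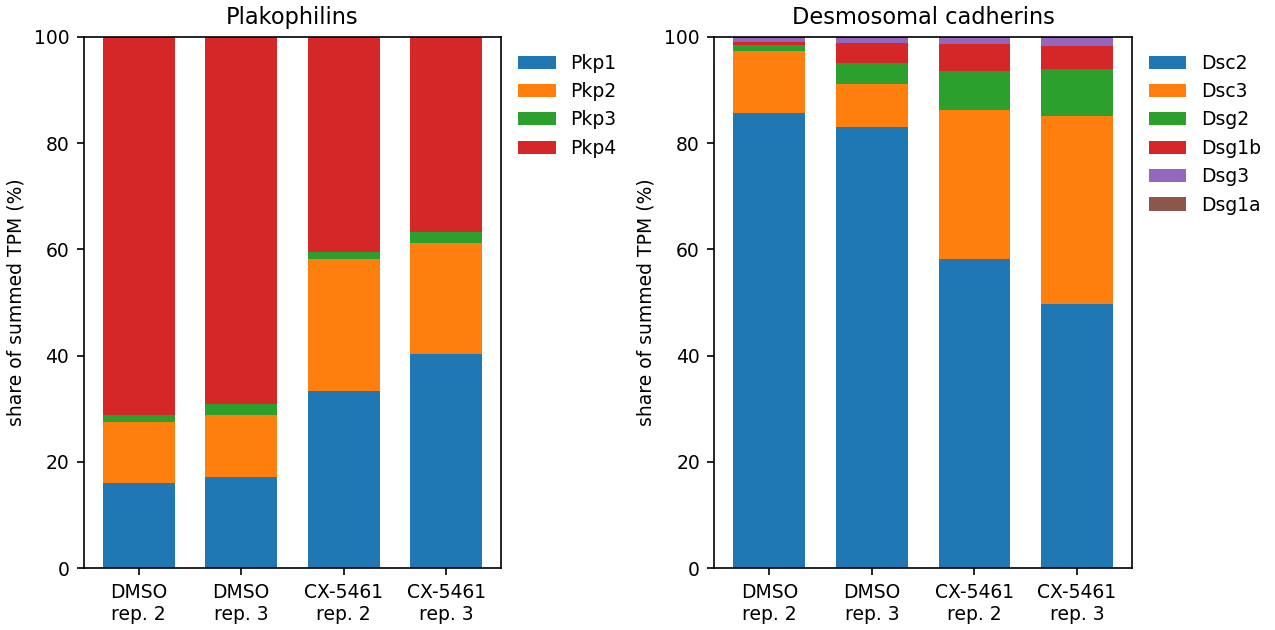
Share of each gene (%) in the summed TPM of the 4 plakophilins (left) and of the desmosomal cadherins above 0 (right), with 1 bar per library. Pkp4 takes 69.2% to 71.2% of the plakophilin sum in DMSO and 36.7% to 40.5% after CX-5461, and Dsc2 takes 83.1% to 85.6% and then 49.7% to 58.3% of the cadherin sum.

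The desmosomal cadherins were the scarcest part of the set. Dsc2 encodes desmocollin 2, the most widespread desmocollin (ENSMUSG00000024331.11, chromosome 18, 20030633 to 20059554, minus strand). It stood at 4.74 and 4.36 TPM with DMSO and at 4.41 and 4.06 TPM with CX-5461. The groups overlapped, and Dsc2 did not pass (log2 difference -0.08, 95% interval -0.48 to 0.31, limma adjusted p = 0.741). The interval still allows a change of some size in either direction.

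Dsc3 encodes desmocollin 3, a desmocollin of the basal epidermis (ENSMUSG00000059898.9, chromosome 18, 19960930 to 20002351, minus strand). It stood at 0.648 and 0.416 TPM with DMSO, from 36 and 26 recovered reads, and at 2.11 and 2.88 TPM with CX-5461, from 117 and 157 reads. Both treated libraries were above both controls. The mean rose 4.69-fold on the TPM scale, and the log2 difference was 1.19 (limma adjusted p = 0.0289). With a pseudocount of 0.1 the difference was 2.05, with a pseudocount of 5 it was 0.44, and with voom on recovered reads 2.18. The call of Dsc3 ended whichever library was left out: DMSO replicate 2 (adjusted p = 0.0610), DMSO replicate 3 (0.103), CX-5461 replicate 2 (0.105) or CX-5461 replicate 3 (0.193).

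Dsg2 encodes desmoglein 2, the desmoglein found wherever desmosomes are (ENSMUSG00000044393.15, chromosome 18, 20558074 to 20604521, plus strand). It stood at 0.0647 and 0.209 TPM with DMSO and at 0.560 and 0.720 TPM with CX-5461. The groups lay apart but the numbers were small, from 5.5 and 20 recovered reads to 47.5 and 60. Dsg2 was not in the main test, and without the filter it did not pass (log2 difference 0.53, limma adjusted p = 0.102). Exons of the antisense gene Gm16090, itself at or under 0.143 TPM, cover 3.99% of the exon length of Dsg2.

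These 3 genes lie in the desmosomal cadherin cluster of chromosome 18, where 9 coding genes of the family follow each other over 644 kb. In order they are Dsc3, Dsc2, Dsc1, Dsg1c, Dsg1a, Dsg1b, Dsg4, Dsg3 and Dsg2. Dsc1, Dsg1c and Dsg4, of differentiated epidermis and hair, were listed at 0 in all 4 libraries. Dsg1a and Dsg3, desmogleins of stratified epithelia, stayed at or under 0.114 TPM. Dsg1b stood at 0.0245 and 0.196 TPM with DMSO and at 0.393 and 0.363 TPM with CX-5461. Of the neighbouring desmocollins, Dsc3 passed as higher, having reached the filter only through its CX-5461 libraries, and Dsc2 did not pass. That their differences differ was not tested.

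Summed over the desmogleins, levels were 0.148 and 0.470 TPM with DMSO and 1.05 and 1.22 TPM with CX-5461. The desmocollins summed to 5.39 and 4.78 TPM and to 6.52 and 6.94 TPM. In each library, then, desmocollin transcripts outnumbered desmoglein transcripts, and both were scarcer than Jup. Dsc2 made up 85.6% and 83.1% of all desmosomal cadherin TPM in the controls and 58.3% and 49.7% in the treated libraries, with Dsc3 at 11.7% and 7.93% and then 27.9% and 35.3%. Per unit of Dsc2, Dsp stood at 5.20 and 5.43 with DMSO and at 21.7 and 28.4 with CX-5461.

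Perp encodes a tetraspan membrane protein of desmosomes and is a target of p53 and p63 (ENSMUSG00000019851.8, chromosome 10, 18845020 to 18857073, plus strand). It was the highest of the 10 genes in every library, at 239 and 222 TPM with DMSO and at 618 and 774 TPM with CX-5461. The treated libraries lay apart from the controls and also from each other, with an SD of 110.1 TPM around their mean. The mean rose 3.02-fold (log2 difference 1.58 ± 0.13 SE, limma adjusted p = 0.00155), and Perp ranked 136th from the top of all tested genes. It held 49.01% and 46.9% of the summed TPM of the 10 genes with DMSO and 62.6% and 65.7% with CX-5461. That sum was 488 and 473 TPM in the controls and 987 and 1177 TPM in the treated libraries. Without Perp it was 248.8 and 251 TPM against 369 and 403 TPM.

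**Figure D3:**
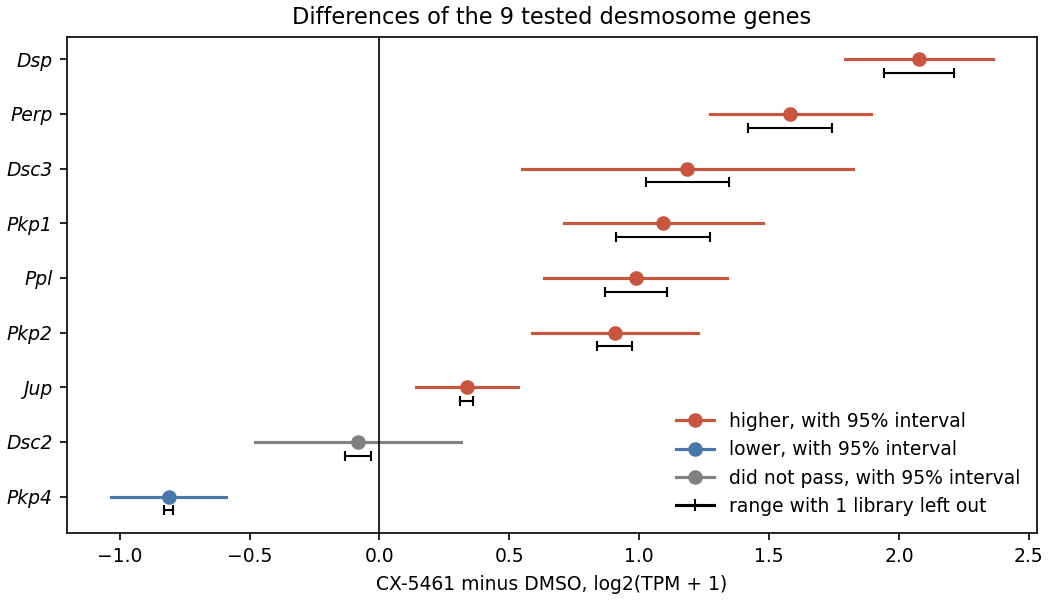
Difference of the 9 tested genes between CX-5461 and DMSO on the log2(TPM + 1) scale: points with 95% intervals from limma, and black bars for the range with 1 library left out. Dsp (2.08) and Perp (1.58) lie highest, Dsc2 (-0.08) spans 0 and Pkp4 (-0.81) lies below 0.

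The intervals of some members lay apart, though differences between members were not tested. The 95% interval of Dsp (1.79 to 2.36) lay above those of Pkp1 (0.71 to 1.47), Ppl (0.63 to 1.34), Pkp2 (0.59 to 1.22) and Jup (0.14 to 0.53). It overlapped those of Perp (1.27 to 1.89) and Dsc3 (0.55 to 1.82). Those of Pkp1, Ppl and Pkp2 overlapped widely. CX-5461 replicate 3 had the highest level of Dsp, Jup, Pkp1, Dsg2, Dsc3, Perp and Ppl. The fits without a CX-5461 library take the treated spread from the DMSO pair alone and call fewer genes of any kind. Without CX-5461 replicate 3, the genes called higher were Dsp and Perp and no gene was called lower, where 1.62% of all tested genes were higher and 2.49% lower. Without CX-5461 replicate 2 they were Dsp, Perp and Pkp1, with Pkp4 lower, against 2.15% and 2.79% of all tested genes. Dsp and Perp passed in every alternative run, and none of the 9 genes changed direction in any. Without DMSO replicate 3, the library with the high mitochondrial share, 6 genes passed as higher and 1 as lower (6.48% and 5.77% of all tested genes). Without DMSO replicate 2 the counts were again 6 and 1 (14.0% and 6.09%).

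The other genes of the desmosome told little more. Of 10 further genes of this kind, 7 were below the filter. The 3 tested, Evpl, the corneodesmosome gene Cdsn and the desmosome-linked Kazn, did not pass with limma. All 3 had an unadjusted p under 0.05 (2 higher, 1 lower), voom called 2 higher and 1 lower, and median-of-ratios scaling called 1 lower. Cdsn stood at 9.01 and 7.52 against 5.49 and 5.52 TPM (limma adjusted p = 0.0694), and Kazn at 22.0 and 19.5 against 24.9 and 30.1 TPM (0.0909).

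Adherens junction genes encode the classical cadherin junction. Of 13 tested, 3 passed as higher and 1 as lower, with a median difference of 0.16. For this and each list below, markers included, the shares over all tested genes were 11.6% higher and 8.21% lower. Cdh3, which encodes P-cadherin, stood at 30.6 and 32.2 against 49.1 and 44.3 TPM (limma adjusted p = 0.0155). Nectin1, a nectin of epithelial contacts, stood at 27.2 and 23.9 against 35.7 and 40.2 TPM (0.0242), and Plekha7, which binds p120 catenin at the junction, at 5.43 and 5.91 against 10.1 and 9.83 TPM (0.0188). Cdh11, the cadherin of mesenchymal cells, fell from 323 and 342 to 261 and 259 TPM (0.0313). The E-cadherin gene Cdh1 stood at 3.89 and 5.18 against 2.09 and 3.32 TPM and did not pass (log2 difference -0.59, limma adjusted p = 0.143), though it did with voom (-0.83, 0.0313). None of the 4 calls held without CX-5461 replicate 2 or without CX-5461 replicate 3. At the highest, adjusted p was 0.134 for Cdh3 (without CX-5461 replicate 2), and 0.190 for Nectin1, 0.128 for Plekha7 and 0.256 for Cdh11 (each without CX-5461 replicate 3). The calls of Nectin1 and Plekha7 also ended without DMSO replicate 3 (0.0812 and 0.0538), and that of Plekha7 without DMSO replicate 2 (0.0512).

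Hemidesmosomes anchor keratin filaments to the basement membrane. Of 8 genes tested, 2 passed as higher and 1 as lower (median 0.20). Itgb4, the integrin beta 4 subunit, stood at 68.6 and 66.5 against 137 and 170.3 TPM (log2 difference 1.17, limma adjusted p = 0.00317) and passed whichever library was left out. Its partner Itga6 stood at 81.1 and 74.8 against 99.6 and 113 TPM (adjusted p = 0.0330), and Lamb3, a laminin chain of the basement membrane, at 3.49 and 3.43 against 1.61 and 1.38 TPM (0.0351). Leaving out CX-5461 replicate 3 gave the highest adjusted p for both, 0.254 for Itga6 and 0.180 for Lamb3. The call of Itga6 also ended without CX-5461 replicate 2 (0.115) and DMSO replicate 3 (0.0967), and that of Lamb3 without any of the other libraries (0.102 to 0.124).

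Of 13 tested genes of intermediate filaments, 3 passed, all higher, against 11.6% of all tested genes: Synm, Des and Krt17. Synm encodes synemin, a filament protein of muscle, and stood at 4.75 and 4.69 against 10.4 and 13.2 TPM (limma adjusted p = 0.00730, and 0.0732 without CX-5461 replicate 3). Des encodes desmin, the filament that desmosomes hold in heart muscle, and stood at 24.1 and 20.2 against 33.4 and 33.2 TPM (0.0229). Krt17, a keratin of activated epidermis, stood at 0.753 and 0.279 against 2.76 and 2.27 TPM (0.0309). Like Dsc3, Krt17 reached the filter only through its CX-5461 libraries and so had to differ. The calls of Des and Krt17 ended without DMSO replicate 3 (0.0574 and 0.101), CX-5461 replicate 2 (0.144 and 0.176) or CX-5461 replicate 3 (0.160 and 0.145). Vim, the vimentin of fibroblasts, stood at 3514 and 3069 against 2690 and 2616 TPM and did not pass (log2 difference -0.31, limma adjusted p = 0.0910). Vim passed as lower under median-of-ratios scaling (-0.37, 0.0368), but with quantile normalization its difference was -0.06. The filament list had no gene lower in the main test, with 3 lower at an unadjusted p under 0.05, whereas median-of-ratios scaling, quantile normalization and voom called 4, 3 and 4 genes of it lower.

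Among 15 regulators of desmosome assembly and turnover, 2 passed as higher and 1 as lower, against 11.6% and 8.21% of all tested genes. Egfr and Src, kinases that phosphorylate junction proteins, passed as higher. Nin (ninein), a centrosomal protein that moves to desmosomes in the epidermis, passed as lower. Egfr stood at 30.1 and 30.6 against 45.4 and 52.3 TPM (limma adjusted p = 0.0107), Src at 68.1 and 64.9 against 89.1 and 85.6 TPM (0.0280) and Nin at 8.35 and 8.57 against 5.13 and 5.52 TPM (0.0370). Without CX-5461 replicate 2 and without CX-5461 replicate 3 no call remained, with adjusted p of 0.0563 and 0.115 for Egfr, 0.204 and 0.184 for Src and 0.178 and 0.160 for Nin. The calls of Src and Nin also ended without DMSO replicate 3 (0.0617 and 0.115), and that of Nin without DMSO replicate 2 (0.0833).

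Of 12 epithelial transcription and splicing factors, 5 were tested and Grhl3 was the one that passed. Grhl3, a Grainyhead factor of the epidermal barrier, stood at 5.06 and 5.98 against 25.2 and 33.4 TPM (log2 difference 2.21, limma adjusted p = 0.00139) and passed whichever library was left out. Trp63, which encodes p63, the master factor of stratified epithelia, stayed at 0.0927 to 0.206 TPM. Of 6 repressors of epithelial genes, Twist2 passed, as lower, from 36.8 and 36.8 to 27.1 and 23.8 TPM (0.0220), and its call ended whichever library was left out (adjusted p 0.0578 to 0.179). Twist1, a close relative of Twist2, stood on the other side at 225 and 215 against 264 and 271 TPM and did not pass (log2 difference 0.28, limma adjusted p = 0.0602). With voom, and likewise without DMSO replicate 2, Twist1 was the 1 repressor called higher. Snai1, Snai2, Zeb1 and Zeb2 had differences of 0.10, 0.06, -0.03 and 0.08 and did not pass. Without the filter, the calls of Cdh11, Nectin1, Itga6, Lamb3, Des, Krt17, Src and Nin ended too (adjusted p 0.0518 to 0.0687), and without the trend and robust options those of Cdh11, Nectin1, Itga6, Des, Src and Twist2 (0.0516 to 0.0853).

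**Figure D4:**
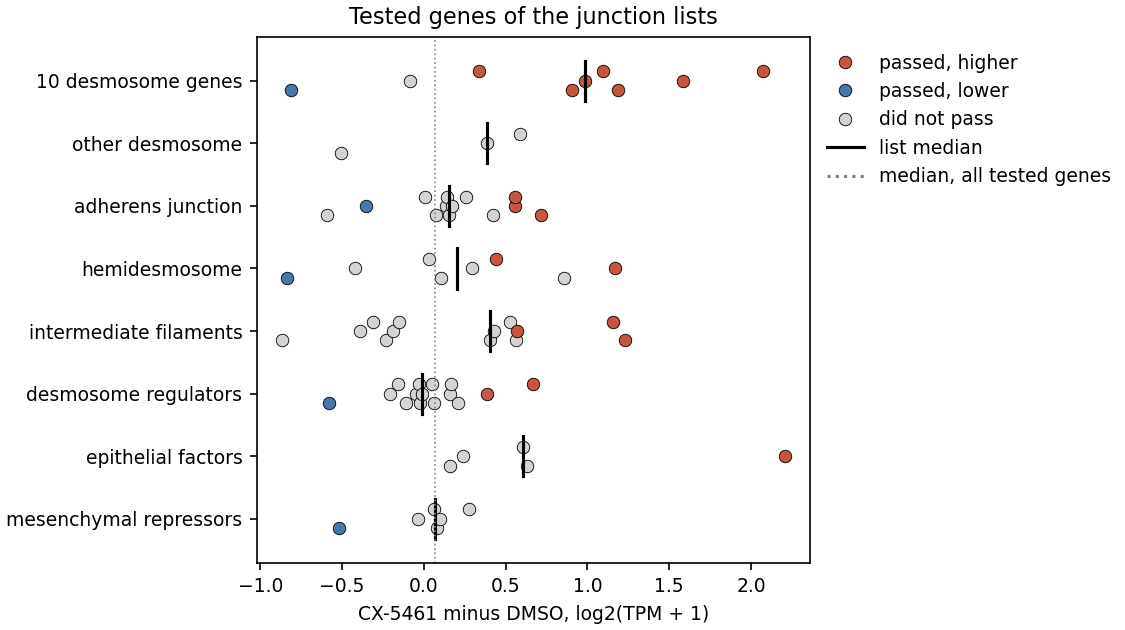
Difference between CX-5461 and DMSO on the log2(TPM + 1) scale for each tested gene of 8 gene lists, with points coloured by whether the gene passed as higher or lower, bars for list medians and a dotted line for the median of all tested genes (0.07). The desmosome genes have 7 points past the threshold as higher and 1 as lower, of 9 tested. Among all tested genes, 11.6% passed as higher and 8.21% as lower. Dsc3, among the higher points, reached the filter only through its CX-5461 libraries and so had to differ. Grhl3 (2.21) lies farthest to the right of all points shown.

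Markers of several cell types were present at uneven levels. Keratinocyte markers summed to 102 and 106 TPM with DMSO and to 166 and 212 TPM with CX-5461. Of the 11, 6 were tested and 5 were below the filter. Of the 6, Itgb4, which is also in the hemidesmosome list, was the 1 that passed, as higher. Without Itgb4 the keratinocyte markers summed to 33.4 and 39.2 against 29.4 and 41.7 TPM, ranges that overlap. Of the defining markers, Trp63, Dsg3 and Col17a1 stayed at or under 0.288 TPM, and the basal keratin Krt14 stood at 26.4 and 26.9 against 10.8 and 18.5 TPM. Its partner Krt5 stood at 1.08 and 1.30 against 2.00 and 2.51 TPM (limma adjusted p = 0.139, not past the threshold), and Krt15, below the filter, at 0.220 and 0.196 against 0.882 and 0.449 TPM. At an unadjusted p under 0.05, 4 keratinocyte markers, Itgb4 included, were higher and 1 was lower. Markers of the differentiated layers did not pass but were higher in both CX-5461 libraries: Ivl (involucrin) at 1.27 and 4.41 against 7.86 and 8.36 TPM, and Lor (loricrin) at 1.15 and 2.09 against 3.40 and 4.40 TPM. Simple epithelium markers summed to 5.10 and 6.58 against 4.66 and 4.43 TPM, with 6 of 8 under 1 TPM in every library, Cldn6 at 0 with DMSO and Grhl2 at 0 in 3 libraries. Mesothelium markers summed to 366 and 318 against 297 and 319 TPM. Among them Msln stood at 136 to 183 TPM in the 4 libraries, and 2 of 6, Upk3b and Lrrn4, passed as lower. Cardiomyocyte markers summed to 4.25 and 5.86 against 2.33 and 5.27 TPM, with 4 of 8 under 1 TPM in every library and Actn2 at 0 in 2 libraries. Endothelium markers summed to 51.0 and 50.6 against 58.3 and 57.2 TPM, of which all but 0.460 to 0.552 TPM came from Kdr, which rose, and Tek, which fell. Tie1 was at 0 in 3 libraries. Fibroblast markers summed to 8596 and 6789 against 6044 and 5838 TPM, and 5 of 8 passed as lower (Lum, Pdgfra, Dcn, Thy1 and Col3a1). The part of these cells in the levels of the desmosome genes was not tested.

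**Figure D5:**
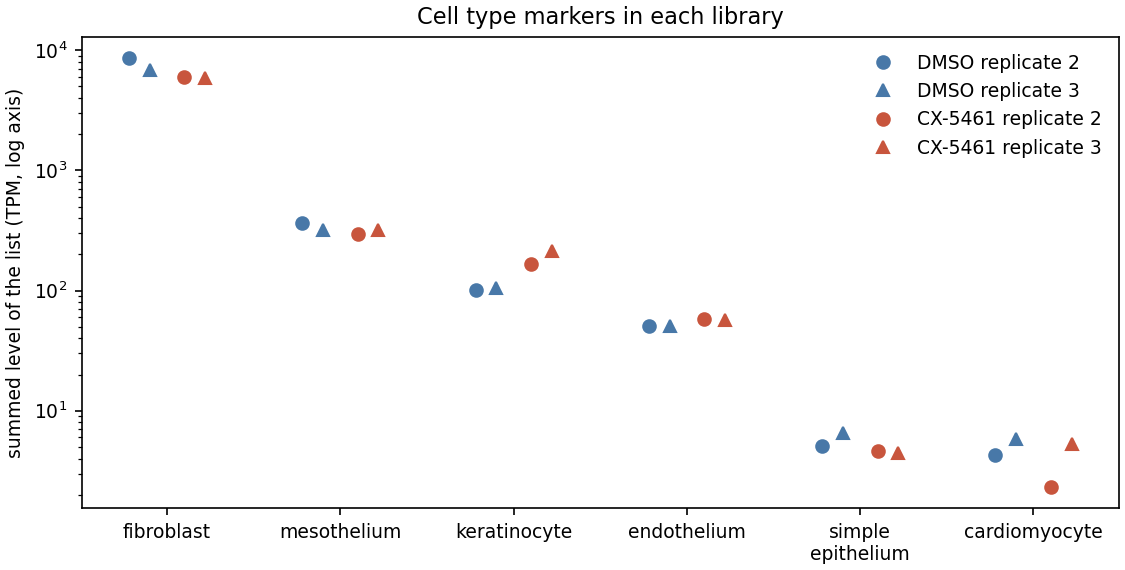
Summed level (TPM, log axis) of 6 lists of cell type markers in each library, with circles for replicate 2 and triangles for replicate 3. Fibroblast markers lie highest, at 5838 to 8596 TPM, and the keratinocyte sum is higher in both CX-5461 libraries (166 and 212 TPM) than in the DMSO libraries (102 and 106 TPM).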

How the data were processed

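RNA was captured on poly(T) beads and sequenced as 150-base paired-end reads, per the labels' protocols. The deposited values are TPM per gene, computed by the authors on mm10, per the submitters' processing notes. Which aligner, counter and annotation they used is not given in the sources used here. All TPM columns were used, and each sums to 1000000. Read numbers were recovered by dividing TPM by what 1 read is worth at the exon length (GENCODE M21, 30031 of 32230 symbols matched), and 69.5% of 71164 values lay within 0.01 of a whole read, against 2% by chance. They were used to describe depth and for voom on 14355 genes.

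Differences were tested with limma 3.58.1 (R 4.3.3, trend and robust options) on log2(TPM + 1) over the 14621 genes that averaged 1 TPM or more, DMSO against CX-5461, with 2 residual degrees of freedom. The fit was tested on 1 simulated data set, where unchanged genes made up a larger share of its calls than the threshold of 0.05. Calls here may therefore be less certain than their adjusted p. The simulation did not record at which adjusted p its false calls lay. It changed fewer genes than the fit called in these data, so its share of false calls need not hold here. An exact permutation test of 2 libraries against 2 cannot go below 0.333 and was not used. Deviations of same-numbered libraries had a correlation of 0.0307 over genes. With 2 libraries per group, this cannot show whether the numbers pair the libraries. The alternatives tried were pseudocounts of 0.1 and 5, no filter, a filter of 5 TPM, 3 other scalings (the last one without the 13 mitochondrially encoded and the 20 highest genes), the fit without the trend and robust options, a replicate block, voom, each library left out, and thresholds of 0.01 and 0.1.

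The genes named are the 10 members, up to 3 called genes per direction in each related list (each called gene where 4 or fewer were called), and Cdh1, Ctnnb1, Vim, Evpl, Pkp3 and Trp63 whatever their result. Marker genes and others outside this rule were chosen after their values were seen. The members and lists were chosen with earlier results of these data known. Arvcf, on the adherens junction list, was not analysed here. Promoter windows came from RefSeq (GRCm38.p6) and matched 3 of the 10 genes.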

Additional observations from a re-analysis of the deposited data

How the results depend on the processing

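None of the 9 tested desmosome genes changed direction under the alternatives run, and Dsp and Perp passed in each. With 1 library left out, 2 to 6 desmosome genes passed as higher and 0 to 1 as lower, while the counts over all genes ranged from 237 to 2047 higher and from 364 to 891 lower. Both low ends came without CX-5461 replicate 3. Over all genes, 1051 were called higher with no filter, 1128 without the trend and robust options, 548 at an adjusted p under 0.01 and 2623 under 0.1. Genes called lower numbered 2220 with voom and 518 at an adjusted p under 0.01. Genes near 0, such as Dsg2, were limited by depth.

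With a replicate block, 6 desmosome genes passed as higher and 1 as lower, and 1589 and 1100 of all genes. The block ended the calls of Jup (adjusted p = 0.0655), Cdh11 (0.0554), Lamb3 (0.0527) and Nin (0.0607). The samples share only a number, so whether the block belongs in the fit cannot be told. The numbers 2 and 3 gave 2 pairs, too few to test whether each library correlates best with its own number.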
